A study of Mus musculus with 7 samples.

Results

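Interleukins 7, 15, 18 and 33, thymic stromal lymphopoietin and the interleukin 1 receptor antagonist are secreted proteins that epithelial cells can make, and their genes Il7, Il15, Il18, Il33, Tslp and Il1rn are described here in the open chromatin of mouse intestinal stem cells after bone marrow transplantation. A peak of open chromatin was counted for a gene if its summit lay in the gene body, or if the gene was the nearest protein-coding gene within 50 kb. This gave 6 genes of 21631 protein-coding genes, with 174 of the 531679 peaks of the series and 36 of its 103809 merged regions, a region being the stretch covered by overlapping peaks of any of the libraries. The genes were chosen by the presence, position and rank of peaks in these same libraries, with earlier results known, so every difference between recipient types below is a description and carries no test.

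The Allo group held 4 libraries from B6-GFP-Lgr5 recipients of allogeneic marrow from BALB/c donors, and the Syn group held 3 libraries from syngeneic B6-GFP-Lgr5 recipients, numbered within each group as the labels number them. All recipients were lethally irradiated females of 8 to 12 weeks, and all carried a GFP reporter of Lgr5, a surface protein of crypt base stem cells, so that the sort depended on Lgr5 activity. For each library 50000 cells were sorted, 7 days after transplantation, from 3 to 4 mice pooled together, so differences between single mice were averaged before sequencing. Both groups were transplanted and irradiated, and cells of untreated mice were not analysed here. Accessibility was measured by Omni-ATAC-seq, in which the transposase Tn5 cuts and tags open DNA. A donor and recipient mismatch of this kind can lead to graft-versus-host disease, in which donor T cells attack tissues such as the gut.

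As background, IL-7 and IL-15 signal through receptors that share the common gamma chain and sustain lymphocytes, IL-15 above all natural killer cells and memory CD8 T cells, and IL-7 naive T cells and developing lymphocytes. IL-18 and IL-33 belong to the interleukin 1 family. IL-18 is made as a precursor that inflammasome caspases cleave, and it is abundant in gut epithelium, whereas IL-33 is stored in the nucleus and acts as an alarm signal when cells are damaged. The protein from Il1rn occupies the interleukin 1 receptor without signalling and so blocks it. TSLP acts through a receptor that contains the IL-7 receptor alpha chain and is known for type 2 responses at epithelial surfaces. An open region near a gene is not a measure of its RNA, which was not measured here.

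The deposited lists held between 62977 and 88861 peaks in the Allo libraries and between 71925 and 76438 in the Syn libraries. Read numbers behind the lists are unknown, and the background pileup, the lowest expected number of reads piled up at a position that fits the deposited peak values, was 4.46, 4.46, 3.28 and 3.05 in Allo 1 to 4, against 4.93, 5.34 and 4.65 in Syn 1 to 3. Peak names in Allo 3 and Allo 4 follow a different pattern from those in the remaining lists, so the differences at Il7, Il18 and Il33 are also given without these libraries. Of 6 stem cell markers, 5 (Lgr5, Olfm4, Ascl2, Smoc2 and Rgmb) had a peak within 1 kb of a gene end in all 7 libraries. Of the pan-leukocyte markers, a gene-end peak was called for Coro1a in all 7 libraries and for Cd52 in 4, Ptprc and Laptm5 had none, and Cd53 and Cd48 had 0 peaks in each library. The 6 pan-leukocyte markers together held 4 to 13 peaks in Allo libraries and 6 to 7 in Syn libraries. Of the T and NK cell markers, Cd4 showed a gene-end peak in each of the 7 libraries, though none was assigned to it, Cd3e had 1 peak in each, and Cd3d, Cd3g, Cd8a and Nkg7 had 0.

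The members were mostly open in both recipient types. Their peaks numbered 21, 24, 27 and 26 in Allo 1 to 4, against 24, 25 and 27 in Syn 1 to 3. Per 10000 peaks of the library this was 3.33, 3.15, 3.04 and 3.18 in the Allo libraries, against 3.34, 3.39 and 3.53 in the Syn libraries. The ranges of these densities did not overlap, but the highest Allo value, 3.33, and the lowest Syn value, 3.34, all but touched. The share of other gene sets with such ranges apart was not counted, so nothing is read from this. Of the 36 regions, 16 (44.4%) were called in all 7 libraries, and each gene held at least 1 of them. Over the whole series 50324 regions (48.5%) were called in all 7 libraries, and 15063 of 16998 genes with a region (88.6%) held such a region. In each of 8 regions a peak was called in 1 library only, 3 times in an Allo and 5 times in a Syn library, and all 8 of these peaks ranked under percentile 30. The summit lay in the gene body in 16 regions and outside it in 20, and 5 regions lay within 1 kb of a gene end, 4 of them called in all 7 libraries.

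The rank percentile used throughout places each peak among all peaks of its own library by the authors' −log10 q, from 0 for the weakest to 100 for the strongest. It describes standing within a list, and since the lists differ in length a difference in percentile does not by itself show a change in accessibility. The best peak per region and library was used.

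**Figure D1:**
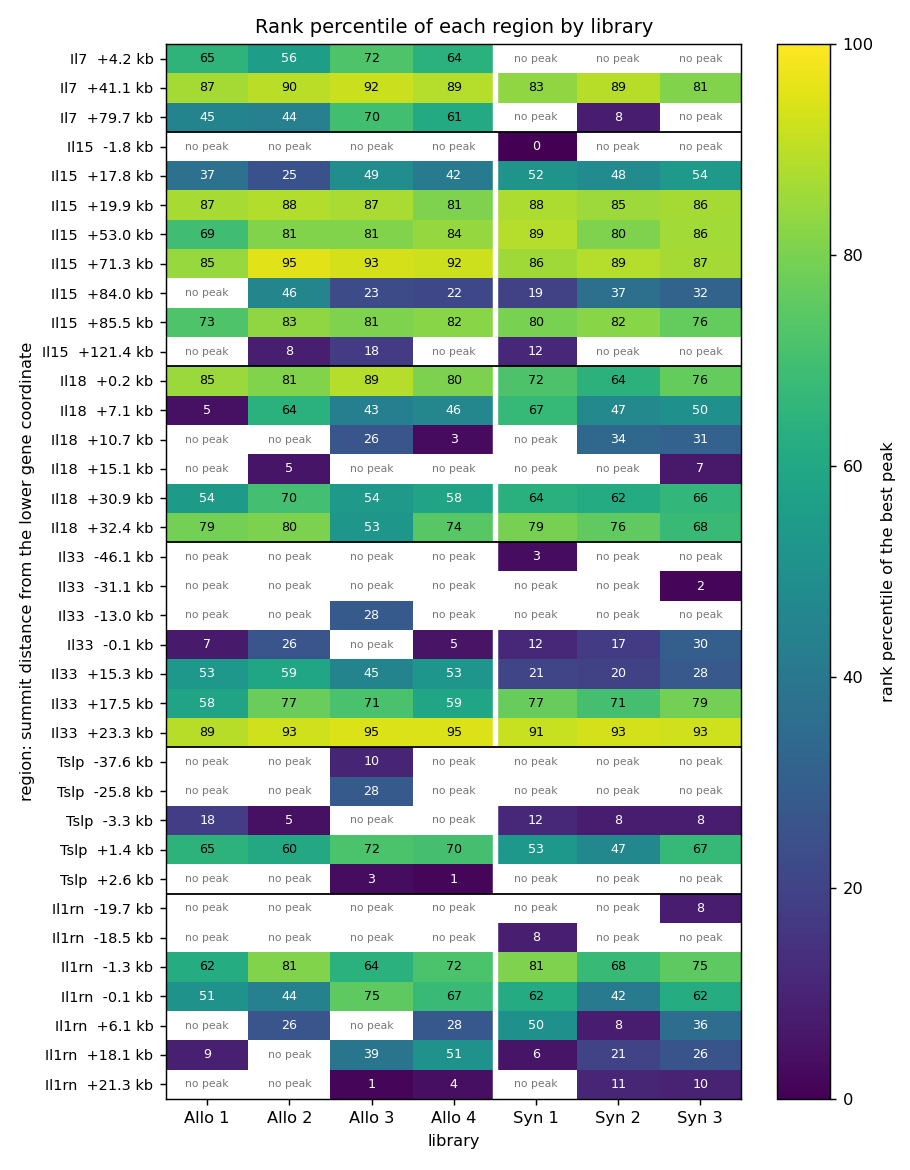
Rank percentile of the best peak in each library (columns, Allo left of Syn) for all 36 regions of the 6 genes (rows, named by summit distance from the lower gene coordinate in kb), with white cells where no peak was called. The first Il7 region is filled in the 4 Allo columns and empty in the 3 Syn columns, and most regions above percentile 50 are filled in all 7.

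Called by presence alone, 1 of the 36 regions (2.78%), in Il7, had a peak in all 4 Allo libraries and in no Syn library, a pattern held by 1.14% of all regions. No member region had a peak in all 3 Syn libraries and in no Allo library, a pattern held by 1.01% of all regions. Counted by gene, 1 of the 6 held an Allo-only region, against 5.51% of all genes with a region, and 0 held a Syn-only region, against 4.44%. Of the 16 regions called everywhere, 2 (12.5%) ranked higher in each Allo than in each Syn library, 1 in Il18 and 1 in Il33, against 8.06% of such regions in the series. None of the 16 ranked lower in each Allo library, against 6.58% in the series, and in the other 14 the groups overlapped. The median difference in percentile, Allo minus Syn, was -0.20 over the 16 regions and 0.44 over all 50324. The number of peaks was higher in each Allo than in each Syn library for 1 gene, Il7, a pattern held by 2.33% of all genes with a peak, and lower in each Allo library for 0 of the 6, against 1.3% of all genes. Because the same contrast was in view when the genes were chosen, nothing is read from these shares.

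**Figure D2:**
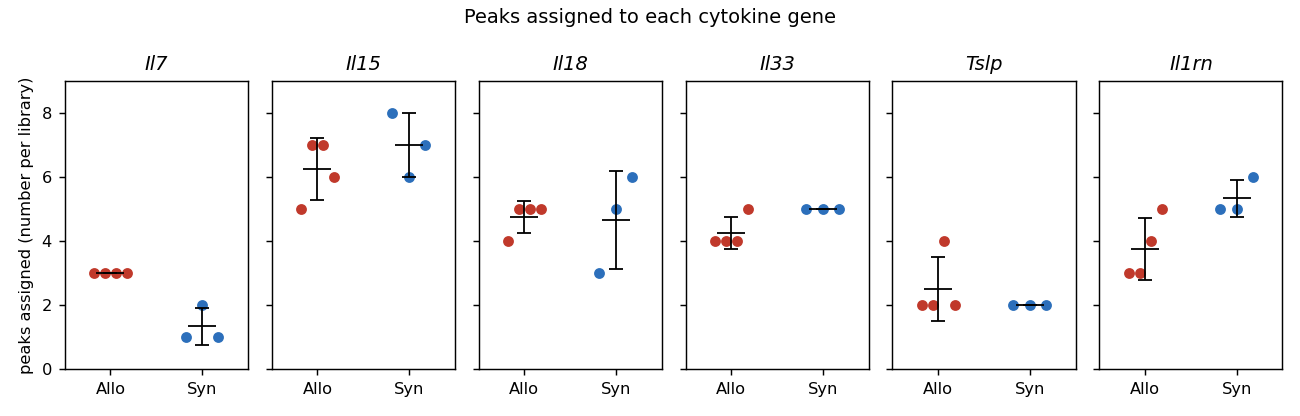
Number of peaks assigned to each of the 6 genes, with 1 point per library, Allo left of Syn, and a bar for the mean with 1 SD. Il7 is the gene whose groups do not overlap, with 3 peaks in each Allo library and 1 or 2 in each Syn library.

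Il7 (chromosome 3, 7572028 to 7613760, mm10, gene ID 16196) encodes IL-7, which crypt epithelium and stroma supply to lymphocytes. It had 3 peaks in each of the 4 Allo libraries, against 1, 2 and 1 in Syn 1 to 3. The average was 3 ± 0 for the 4 Allo libraries (± SD) and 1.33 ± 0.577 for the 3 Syn libraries, a difference of 1.67. The groups did not overlap, and the 3 peaks of each Allo library fell at the same 3 places. Without Allo 3 and Allo 4 the difference was the same, as it had to be with 3 peaks in each Allo library.

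The first place was the Allo-only region, inside the gene body at 7575740 to 7576550 and 4219 bp from its lower end. Its peak stood at percentile 65.2, 55.9, 72.4 and 63.9 in Allo 1 to 4, a mean of 64.3 ± 6.75 (SD, n = 4). The pileup at the summit was 40, 35, 52 and 39, and the authors' −log10 q was 21.8, 17.6, 33.6 and 23.8. In no Syn library was a peak called there, and the nearest Syn peak lay 36102, 36054 and 36062 bp away in Syn 1 to 3, each of them at the other end of the gene. All 4 Allo pileups were more than the lowest pileup of any called peak in the Syn libraries, which was 13, 14 and 13, but a pileup at a place with no called peak was not analysed here. The 4 Allo summits lay within 28 bp of each other, between 7576236 and 7576264, and the peaks were 667 to 811 bp wide. Among the 1183 Allo-only regions of the series, whose median was percentile 28.7, this region ranked 10 by its mean percentile. Without Allo 3 and Allo 4 the mean percentile was 60.5, and without Allo 1 and Allo 2 it was 68.2.

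The second place covered the upper end of Il7, at 7612595 to 7613941, with the summit 655 bp inside the gene. It was called in all 7 libraries and was the strongest of the gene. Its percentile was 86.5, 89.6, 91.8 and 88.9 in Allo 1 to 4, against 83.3, 89.1 and 81.1 in Syn 1 to 3. The average was 89.2 ± 2.18 for the 4 Allo libraries (± SD) and 84.5 ± 4.11 for the 3 Syn libraries, and the groups overlapped through Syn 2. Pileups were 90, 103, 127 and 106 in the Allo libraries, against 78, 96 and 82 in the Syn libraries, and overlapped as well.

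The third place lay 37959 bp beyond the upper end of the gene, at 7651345 to 7651957, and was assigned to Il7 by distance alone. A peak was called in all 4 Allo libraries, at percentile 45.0, 43.7, 69.6 and 61.1, and in 1 Syn library, Syn 2, at percentile 7.91. Pileups were 29, 29, 43 and 34 in the Allo libraries and 20 in Syn 2, whose −log10 q was 4.67. The Allo peaks thus ranked above the Syn 2 peak in each library, with a mean of 54.9 ± 12.7 (SD, n = 4), while Syn 1 and Syn 3 had no peak. With a −log10 q of at least 5, or with all lists cut to the length of the shortest, this region too was called in all 4 Allo libraries and in no Syn library. With assignment limited to 10 kb it no longer counted for Il7, and the difference in peak number was then 1.

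**Figure D3:**
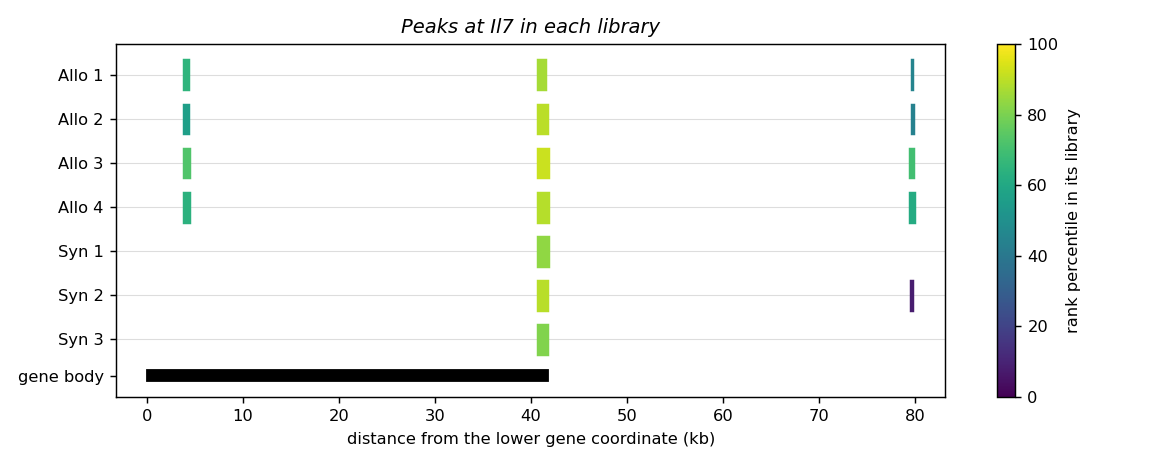
Map of the peaks at Il7 in each library (Allo above Syn), with distance from the lower gene coordinate in kb on the x axis, the gene body as a black bar and the rank percentile as colour. The peak near 4 kb appears in the 4 Allo libraries only, the peak at the upper gene end in all 7, and the distal peak in the 4 Allo libraries and, at a low rank, in Syn 2.

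The Allo-only region in Il7 had no counterpart at the neighbouring genes. Since only 5.51% of all genes with a region held an Allo-only one, nothing is read from this. Zc2hc1a, 18180 bp from Il7, held 1, 2, 4 and 3 peaks in Allo 1 to 4, against 3, 1 and 2 in Syn 1 to 3, and 0 Allo-only or Syn-only regions. Stmn2, the neighbour on the other side, 895767 bp away, held 0 of either as well. The Allo-only regions most like it, by the summed absolute difference in percentile over the 4 Allo libraries, were at Muc5ac (chromosome 7, 141803683 to 141804331), Frmd4a (chromosome 2, 4408332 to 4409077), Gbp4 (chromosome 5, 105139077 to 105140109), Garnl3 (chromosome 2, 33027334 to 33028137) and 26391 bp from Tox2 (chromosome 2, 163176473 to 163177008). The sums were 4.16 for Muc5ac, 9.35 for Frmd4a, 14.9 for Gbp4, 16.4 for Garnl3 and 18.1 for Tox2. Muc5ac, which encodes a secreted gel-forming mucin of the stomach and airways, had percentiles of 66.3, 56.7, 72.9 and 62.2 in Allo 1 to 4. Gbp4 encodes an interferon-inducible GTPase.

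Il15 (chromosome 8, 82331624 to 82403252, mm10, gene ID 16168) encodes IL-15, a survival factor of natural killer cells and intraepithelial lymphocytes, and had the most regions of the 6 genes. Its 8 regions gave 5, 7, 7 and 6 peaks in Allo 1 to 4, against 8, 6 and 7 in Syn 1 to 3. The average was 6.25 ± 0.957 for the 4 Allo libraries (± SD) and 7 ± 1 for the 3 Syn libraries, and the groups overlapped. The 5 regions called everywhere included 1 over the upper end of the gene, at 82402247 to 82403453 with its summit 316 bp inside, which ranked among the strongest of all members. It stood at percentile 84.7, 95.4, 93.4 and 92.5 in Allo 1 to 4, against 85.7, 88.7 and 86.7 in Syn 1 to 3. Allo 1 was the lowest of all 7 there and the other Allo libraries were the highest.

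A weaker region in the body of Il15, at 82349103 to 82349632, had the lower average in the Allo group. Its percentile was 37.5, 25.2, 49.1 and 41.6 in Allo 1 to 4, against 51.7, 48.2 and 53.7 in Syn 1 to 3. The average was 38.3 ± 10.03 for the 4 Allo libraries (± SD) and 51.2 ± 2.80 for the 3 Syn libraries, and the groups overlapped because Allo 3 lay above Syn 2. A stronger region beside it, at 82351127 to 82352280, held percentiles of 87.1, 88.4, 87.3 and 80.5 in Allo 1 to 4, against 87.7, 85.3 and 86.5 in Syn 1 to 3. The region at 82384258 to 82385107 stood at 69.4, 80.9, 80.9 and 84.0 in Allo 1 to 4, against 88.8, 80.5 and 86.3 in Syn 1 to 3, and the groups overlapped. Beyond the upper end, the region at 82416525 to 82417738 stood at 72.6, 83.3, 80.6 and 82.2 in Allo 1 to 4, against 79.8, 82.1 and 76.3 in Syn 1 to 3. A weaker one before it lacked a peak in Allo 1 only. The 2 remaining regions were called in 1 and 3 libraries, below percentile 20 in each.

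Il18 (chromosome 9, 50554700 to 50581841, mm10, gene ID 16173) encodes IL-18, a cytokine that gut epithelium holds as an inactive precursor. It had 4, 5, 5 and 5 peaks in Allo 1 to 4, against 3, 5 and 6 in Syn 1 to 3. The average was 4.75 ± 0.5 for the 4 Allo libraries (± SD) and 4.67 ± 1.53 for the 3 Syn libraries. The Syn 1 count leaves out a peak of the promoter region whose summit fell in Bco2, a gene whose end overlaps that of Il18. The promoter is shown because a peak covered its start site in all 7 libraries and because its region ranked higher in each Allo than in each Syn library. It is given as RefSeq has it for GRCm38.p6, from 250 bases before the start site to 50 from it on, at chr9:50554450-50554749 on the + strand, with the bases from the start site on in capitals.
Il18: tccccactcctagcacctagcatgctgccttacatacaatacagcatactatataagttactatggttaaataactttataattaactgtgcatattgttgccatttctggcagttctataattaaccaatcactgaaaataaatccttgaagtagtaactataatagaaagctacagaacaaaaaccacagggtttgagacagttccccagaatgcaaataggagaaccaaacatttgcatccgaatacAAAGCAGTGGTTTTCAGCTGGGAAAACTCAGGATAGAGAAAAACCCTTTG

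The region over this promoter, at 50554085 to 50555519, had percentiles of 85.1, 81.0, 89.0 and 80.2 in Allo 1 to 4, against 72.0, 64.1 and 76.3 in Syn 1 to 3. The average was 83.8 ± 4.03 for the 4 Allo libraries (± SD) and 70.8 ± 6.15 for the 3 Syn libraries, a difference of 13.0. Each Allo library ranked it higher than each Syn library. The pileups, 76, 73, 92 and 66 in the Allo libraries, against 64, 59 and 72 in the Syn libraries, did overlap, since Syn 3 lay above Allo 4. The difference in percentile was 12.3 without Allo 3 and Allo 4, and 9.68 to 17.2 under the 12 alternative settings tried. Leaving out libraries cannot bring separated groups together. Under the settings that could, the groups stayed apart. The difference there was 14.4 at a −log10 q of at least 5, 14.5 with lists cut and 17.2 when ranked by the fold. Since the region also covers the end of Bco2, its signal cannot be assigned to Il18 alone. Summits in it spread over 543 bp, more than in any other member region called everywhere. This spread came from Syn 1, whose peak, at percentile 72.0, had its summit in Bco2, at 50554395. The summits of the other libraries lay between 50554862 and 50554938.

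Inside Il18, the region at 50561453 to 50562286 varied most between libraries of the same group. It stood at percentile 4.55, 63.8, 43.3 and 46.1 in Allo 1 to 4, against 67.1, 47.2 and 50.4 in Syn 1 to 3. Allo 1 was far below the rest, with a pileup of 17 against 27 to 41 in the other Allo libraries. Of the 2 regions beyond the upper end of the gene, the stronger, at 50586504 to 50587671, stood at 79.0, 80.1, 52.9 and 74.1 in Allo 1 to 4, against 79.3, 75.6 and 67.8 in Syn 1 to 3. The other was called in all 7 libraries between percentile 53.9 and 70.1, and the groups overlapped in both. The last 2 regions of Il18 were called in 4 and 2 libraries, with at least 1 library of each type.

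Il33 (chromosome 19, 29925113 to 29960718, mm10, gene ID 77125) encodes IL-33, the nuclear alarm cytokine whose receptor is the product of Il1rl1. It had 4, 4, 4 and 5 peaks in Allo 1 to 4, against 5 in each Syn library. The average was 4.25 ± 0.5 for the 4 Allo libraries (± SD) and 5 ± 0 for the 3 Syn libraries, a difference of -0.75. The groups met at 5 through Allo 4, and without Allo 4, or without Allo 3 and Allo 4, they were apart at a difference of -1. The share of all genes apart in these smaller sets was not counted. Syn 1 and Syn 3 reached 5 through peaks found in no other library, at percentile 3.35 and 1.73. Syn 2 reached it through 2 peaks in the same region. With the lists cut to the shortest length the difference was 0.0833. The promoters at 2 start sites of the gene are shown because peaks lay at the first and not at the second. A peak overlapped the window of the first in 6 of 7 libraries and covered its start site in 4, whereas a peak overlapped the second in 0, its nearest region having its summit 2575 bp beyond the start site. The RefSeq sequences for GRCm38.p6 lie on the + strand at chr19:29924863-29925162 and chr19:29945540-29945839, with the bases from the start site on in capitals.
Il33, first start site: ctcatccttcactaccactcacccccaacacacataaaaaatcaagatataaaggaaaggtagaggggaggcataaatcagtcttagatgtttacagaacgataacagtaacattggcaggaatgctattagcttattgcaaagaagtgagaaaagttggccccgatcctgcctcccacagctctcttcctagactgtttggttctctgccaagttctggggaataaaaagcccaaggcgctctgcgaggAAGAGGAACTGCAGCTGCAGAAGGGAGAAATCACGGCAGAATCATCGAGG
Il33, second start site: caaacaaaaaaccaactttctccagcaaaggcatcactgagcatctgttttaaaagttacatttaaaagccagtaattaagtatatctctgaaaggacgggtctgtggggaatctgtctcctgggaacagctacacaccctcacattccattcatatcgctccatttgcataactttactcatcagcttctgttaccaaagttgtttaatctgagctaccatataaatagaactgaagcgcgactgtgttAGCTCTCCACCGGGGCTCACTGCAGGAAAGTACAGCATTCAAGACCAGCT

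At the first of these promoters the region at 29924581 to 29925221 was weak. Its percentile was 7.22, 26.4 and 5.15 in Allo 1, Allo 2 and Allo 4, against 11.6, 17.3 and 30.3 in Syn 1 to 3, and Allo 3 had no peak there. Allo 3 was the library with the most peaks. The strongest region of the gene was instead inside it, at 29947905 to 29948813, at percentile 89.5, 92.9, 94.7 and 94.6 in Allo 1 to 4, against 91.4, 93.4 and 92.8 in Syn 1 to 3. The ranges of the groups overlapped there.

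The region in Il33 that separated the groups by rank was at 29939753 to 29940672, with its summit 15312 bp into the gene. Its percentile was 53.4, 59.3, 45.0 and 52.6 in Allo 1 to 4, against 20.9, 19.8 and 28.1 in Syn 1 to 3. The average was 52.6 ± 5.86 for the 4 Allo libraries (± SD) and 22.9 ± 4.52 for the 3 Syn libraries, a difference of 29.6. Pileups were 43, 50, 39 and 41 in the Allo libraries, against 32, 31 and 37 in the Syn libraries, and did not overlap either. The share of all regions whose pileups were apart was not counted. The background pileup was lower in each Allo library, and its part in this difference was not tested. The difference was 25.9 without Allo 1 and Allo 2 and 33.4 without Allo 3 and Allo 4. Leaving out libraries cannot bring separated groups together. Under the settings that could, the groups stayed apart. The difference there was 32.7 at a −log10 q of at least 5, 31.7 with lists cut and 29.8 when ranked by the fold. Allo 4 and Syn 2 had 2 peaks each in this region, and the summits over all libraries spread over 539 bp.

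A region just beside it in Il33, with percentiles of 58.2, 77.0, 71.2 and 58.7 in Allo 1 to 4, against 76.6, 70.6 and 79.2 in Syn 1 to 3, did not share the pattern, since the groups overlapped. The other 3 regions of Il33 were each called in 1 library, Syn 1, Syn 3 or Allo 3, none above percentile 28.2.

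**Figure D4:**
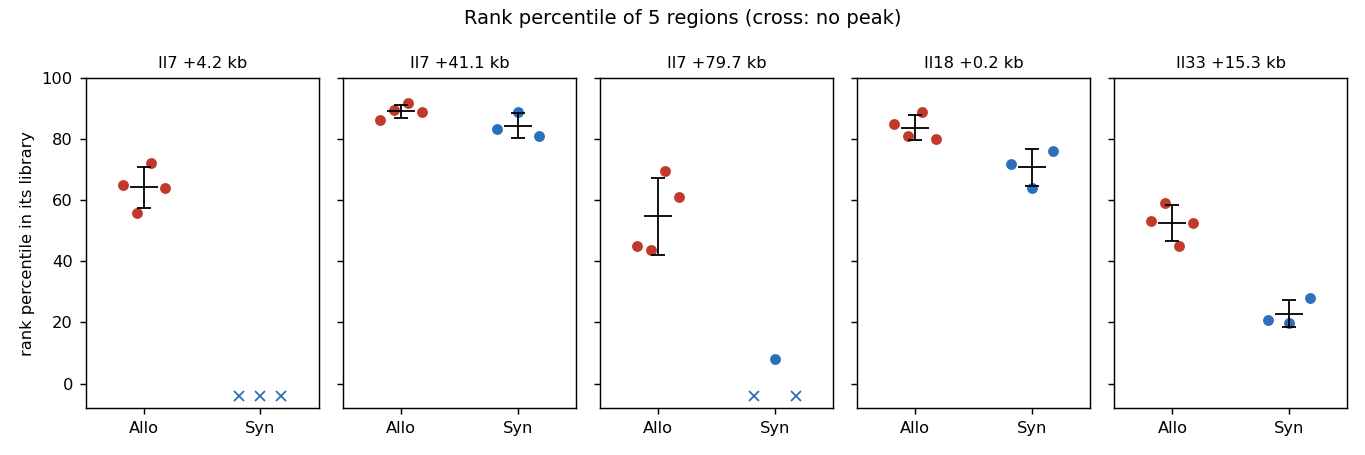
Rank percentile in each library for the 3 regions of Il7 and for the Il18 and Il33 regions that ranked higher in each Allo library, with Allo left of Syn and bars for the mean with 1 SD. Crosses mark libraries with no peak, as in all 3 Syn libraries at the first Il7 region and in 2 of them at the third.

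Il1rn (chromosome 2, 24336860 to 24351491, mm10, gene ID 16181) encodes the interleukin 1 receptor antagonist, the inhibitor among the 6. It had 3, 3, 4 and 5 peaks in Allo 1 to 4, against 5, 5 and 6 in Syn 1 to 3. The average was 3.75 ± 0.957 for the 4 Allo libraries (± SD) and 5.33 ± 0.577 for the 3 Syn libraries, a difference of -1.58. The groups met at 5 through Allo 4, and without Allo 4 they were apart, at a difference of -2, as they were without Allo 3 and Allo 4, at -2.33. The share of all genes apart in these smaller sets was not counted. With the lists cut to the shortest length the difference was -0.0833. The promoter at the first start site is shown because a peak covered that site in all 7 libraries, which was not so at either of the other start sites listed for the gene, where a peak overlapped the window in 0 libraries. It lies at chr2:24336610-24336909 on the + strand of GRCm38.p6, from RefSeq, with the bases from the start site on and a match to the AP-1 motif in capitals.
Il1rn, first start site: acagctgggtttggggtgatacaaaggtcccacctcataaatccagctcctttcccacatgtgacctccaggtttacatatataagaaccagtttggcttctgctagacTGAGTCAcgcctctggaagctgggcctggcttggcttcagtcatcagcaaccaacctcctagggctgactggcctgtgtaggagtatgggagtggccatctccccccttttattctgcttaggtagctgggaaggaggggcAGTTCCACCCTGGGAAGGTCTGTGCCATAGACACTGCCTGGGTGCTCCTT

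The match, TGAGTCA, lies at bases -141 to -135 from the start site. AP-1 was searched as TGANTCA, and this pattern was found in 7.81% of the 32851 promoter windows in the table. In the 6 windows of Il18, Il33 and Il1rn it was the only match to any of the motifs searched. The others, on both strands, were GAAANNGAA for IRF factors (8.56% of all windows), TTCNNNGAA for STAT factors (8.30%), GGAATTTCC or GGACTTTCC for NF-kB (0.658%), CTTTGAT for TCF (3.73%), TTTATNG for CDX (10.9%) and CAAAGTCCA for HNF4 (0.475%). Promoters of Il7, Il15 and Tslp are not shown. A match is a description of letters and not a bound site.

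The region over this Il1rn promoter, at 24336195 to 24337141, had percentiles of 51.0, 44.1, 75.1 and 67.4 in Allo 1 to 4, against 61.7, 41.6 and 62.1 in Syn 1 to 3. Just upstream, the region at 24335200 to 24336153 had 62.0, 81.2, 64.0 and 71.6 in Allo 1 to 4, against 80.7, 67.9 and 75.1 in Syn 1 to 3. Both were called in all 7 libraries and the groups overlapped in both. The libraries differed in which of the weaker regions were called. The region inside the gene at 24342634 had a peak in all 3 Syn libraries, at percentile 50.1, 7.91 and 35.7, and in Allo 2 and Allo 4 only, at 26.4 and 27.7. The region at 24354819 lacked a peak in Allo 2 only, and the region at 24357797 was called in Allo 3, Allo 4, Syn 2 and Syn 3, below percentile 11 in each. The last 2 regions were called in 1 Syn library each.

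Tslp (chromosome 18, 32815383 to 32819799, mm10, gene ID 53603) encodes TSLP and is the shortest of the genes. It had 2, 2, 4 and 2 peaks in Allo 1 to 4, against 2 in each Syn library, an average of 2.5 ± 1 for the 4 Allo libraries (± SD) and 2 ± 0 for the 3 Syn libraries. The region in the gene body at 32816542 to 32817210 was called in all 7 libraries. Its percentile was 64.8, 60.2, 71.8 and 70.3 in Allo 1 to 4, against 53.2, 46.7 and 66.9 in Syn 1 to 3. The average was 66.8 ± 5.31 for the 4 Allo libraries (± SD) and 55.6 ± 10.3 for the 3 Syn libraries, and the groups overlapped through Syn 3, which lay above Allo 1 and Allo 2. The 7 summits lay within 24 bp. A weak region 3.3 kb below the gene was called in Allo 1 and Allo 2, at percentile 18.2 and 4.62, against 11.6, 7.91 and 8.11 in Syn 1 to 3. The 2 extra peaks of Allo 3 were at percentile 10.3 and 28.2, and a further weak region, called in Allo 3 and Allo 4, stood at 3.25 and 1.40.

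**Figure D5:**
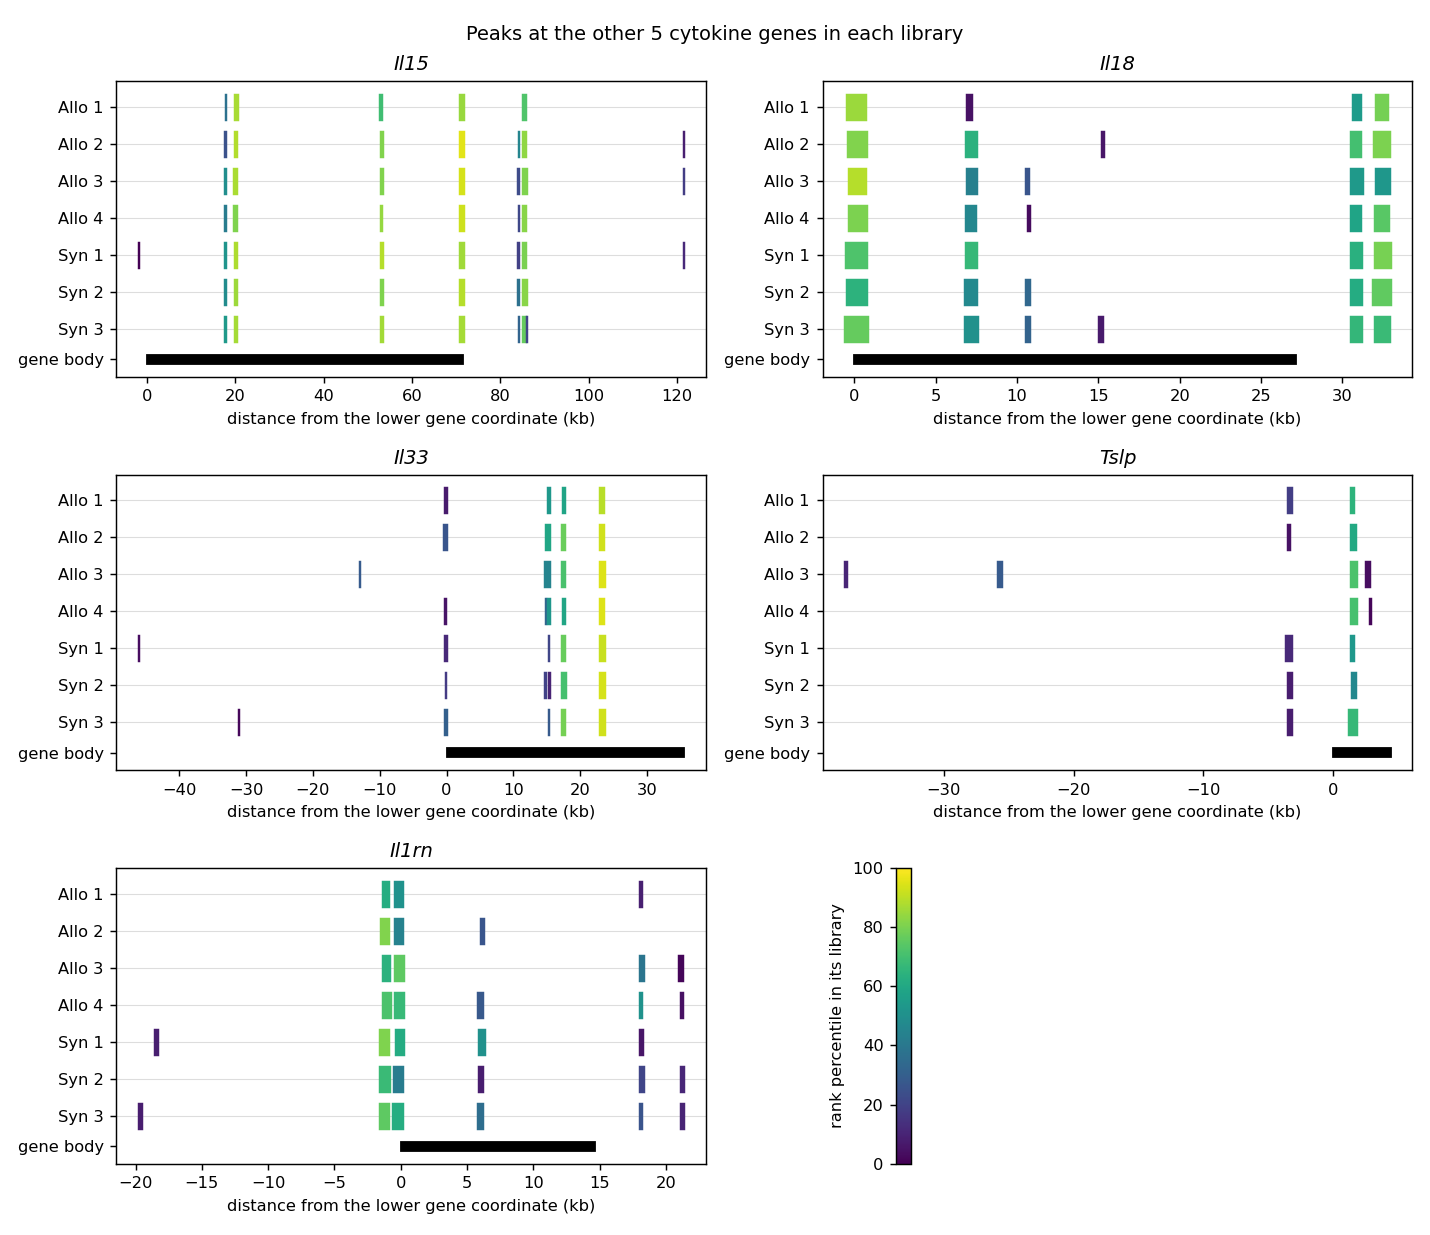
Maps of the peaks at Il15, Il18, Il33, Tslp and Il1rn in each library (Allo above Syn), with distance from the lower gene coordinate in kb, the gene body as a black bar and the rank percentile as colour. The strong regions recur in all 7 libraries, and the places found in 1 or a few libraries are dark, that is, of low rank.

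Summit positions varied little between libraries. The summits of the 16 regions called everywhere had a median range of 69 bp over the 7 libraries, against 71 bp over all such regions of the series. The range was over 200 bp in 3 of the 16 regions (18.8%), 2 in Il18 and 1 in Il33, against 17.2% in the series. In Il15, by contrast, the summits of the region at 82351127 lay within 10 bp.

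Presence also followed single libraries. In 6 regions Allo 1, the library with the fewest peaks, had no peak although another Allo library and a Syn library did. Without Allo 1 and Allo 2, a weak region inside Tslp counted as Allo-only and the weak region below Tslp as Syn-only. Tuft cell markers moved with the recipient type, with 31 to 44 peaks over 6 genes in the Allo libraries and 25 to 29 in the Syn libraries (4.07 to 4.95 against 3.27 to 3.94 per 10000 peaks). Stromal markers held 7 to 19 peaks in Allo libraries and 11 to 13 in Syn libraries, with a gene-end peak of Col1a1 in 6 libraries and Col3a1 at 0 in each. Endothelial markers held 34 to 53 peaks in Allo libraries and 40 to 43 in Syn libraries. Among them Kdr showed a gene-end peak in each of the 7, and Emcn held 0 peaks. Myeloid markers held 12 to 18 peaks in Allo libraries and 14 in each Syn library. Itgam and Spi1 showed a gene-end peak in 7 libraries, Cd68 in 5, and Csf1r and Adgre1 in 0. Lyz2 held 0 peaks in each library. The part of other cell types in the Il7, Il18 and Il33 patterns was not tested. In sorted bulk cells a change in the make-up of the cells and a change in each cell cannot be told apart.

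At the 50 kb limit, the outermost region counted for Il7 lay 37959 bp away and the next one 52908 bp away, called in all 7 libraries and at best at percentile 59.4. For Il15 the outermost region lay 49790 bp away, called in 2 Allo libraries and 1 Syn library, and the next one 70843 bp away, called in 2 Syn libraries. For Tslp these were 37601 and 111584 bp, each called in 1 Allo library. For Il18, Il33 and Il1rn the outermost regions lay 5209, 46141 and 19689 bp away and none was found between 50 and 500 kb that was nearest to them.

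Receptors, inhibitors, processing enzymes, signalling proteins and other cytokines of the same pathways were set beside the 6 genes as 64 listed genes, of which 63 were matched and 56 held a region. Of these, 55 held a region called in all 7 libraries, 5 held an Allo-only region (5.51% of all genes with a region did) and 3 a Syn-only region (4.44%). The peak number was higher in each Allo than in each Syn library for 2 of the 63, against 2.33% of all genes with a peak. It was lower in each Allo library for 2, against 1.3%. Nothing is read from these shares. The 11 receptor genes held no Allo-only region. Il1rap, the shared signalling chain of the IL-1, IL-33 and IL-36 receptors, had 4, 4, 3 and 4 peaks in Allo 1 to 4, against 5, 7 and 6 in Syn 1 to 3, and a Syn-only region in its body at a mean percentile of 11.4. Il7r, which encodes the IL-7 receptor alpha chain, and Il1rl1, which encodes the IL-33 receptor, had 0 peaks in all 7 libraries. Il15ra, which presents IL-15 to neighbouring cells, had 3, 4, 5 and 4 peaks in Allo 1 to 4, against 3 in each Syn library. The inhibitor genes included Il18bp, whose product binds IL-18, with 1 peak in each library, and Socs1, whose product damps JAK-STAT signalling. Socs1 held an Allo-only region 14808 bp away, at a mean percentile of 38.3 ± 1.48 (SD, n = 4).

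Among the 12 genes of processing and release, all of which held a region called everywhere, Nlrp1b was the gene whose peak number separated the groups. This inflammasome sensor had 6 peaks in each Allo library, against 4 in each Syn library, and 2 regions in its body were Allo-only, at mean percentiles of 43.3 and 22.3. Casp1, the caspase that cleaves IL-18, had 3 peaks in each Allo library, against 4, 3 and 3 in Syn 1 to 3. Of the 12 signalling genes, Irf1, an interferon-induced transcription factor, held 3 Allo-only regions at mean percentiles of 28.3, 27.5 and 7.96. Its peak number, 10, 12, 16 and 14 in Allo 1 to 4, against 11, 9 and 8 in Syn 1 to 3, overlapped between the groups. Irf2, a related factor, held a Syn-only region 18860 bp away at a mean percentile of 33.7.

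Of the 23 other cytokine genes, 18 held a region called in all 7 libraries. Il10, which encodes an anti-inflammatory cytokine, had 4, 4, 6 and 5 peaks in Allo 1 to 4, against 3, 3 and 2 in Syn 1 to 3, and an Allo-only region 9083 bp away at a mean percentile of 34.3. Csf2, which encodes the growth factor GM-CSF, had 1, 2, 2 and 2 peaks in Allo 1 to 4, against 3 in each Syn library, and a Syn-only region at a mean percentile of 14.0. Kitl, the gene of stem cell factor, held an Allo-only region 31902 bp away at a mean percentile of 32.8. The Allo-only regions of these genes all had lower mean percentiles than that of Il7, whose mean was 64.3. No Allo-only or Syn-only region was found at any of the 13 protein-coding neighbours of the 6 cytokine genes that were examined. Of all genes with a region, 5.51% held an Allo-only and 4.44% a Syn-only one, so nothing is read from this. Among the neighbours Tex12 held 0 regions, and Trpd52l3 and Il1f10 held 1 each.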

How the data were processed

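Omni-ATAC-seq was done on sorted Lgr5+ cells, in 4 Allo and 3 Syn libraries grouped by their titles. The authors deposited peaks called separately for each library, in lists of 10 columns with no header. The submitters' processing notes name mm10 as the build and Trim Galore, Bowtie2, MACS2 and MACS3 as tools. Not given in the sources used here are their versions, the peak-calling threshold and how reads were shifted for Tn5, filtered or extended, all of which can move peak widths and pileups. For each peak the authors gave a score, a ratio of signal to background (the fold), −log10 p, −log10 q and a summit position, the p-value and q-value being the peak caller's. They are each peak's own and served only to rank, filter or describe peaks within a list.

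Peaks on chromosomes 1 to 19 and X were merged across libraries at an overlap of at least 1 bp. Genes came from a RefSeq table of GRCm38.p6, the build of mm10, with 21631 protein-coding genes. It gives neither strand nor exons, so positions are given from the lower or upper gene end. All 6 members were matched, and 63 of 64 pathway genes. The rank percentile is 100 × (average rank − 0.5) / number of peaks. The deposited fold and −log10 p were solved together for a whole number of reads piled up at the summit, which fitted 100% of peaks to within 0.001. Depth is unknown, so no counting interval is given.

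The members and all gene lists were chosen with earlier results of these data known. Values are therefore means with SD or single values, with no test. The text names the 6 members and their regions, the pathway genes that hold an Allo-only or Syn-only region, the 5 Allo-only regions most like that of Il7, and the neighbouring genes. Il7r, Il1rl1, Il15ra, Il18bp and Casp1 were named after their values were seen. Promoters were those of the RefSeq table, which was searched for Il18, Il33 and Il1rn in 6 windows. The alternatives tried were a distance of 10 kb, ranking by the fold, 501 bp windows around summits, lists cut to equal length, a minimum −log10 q of 5, coverage of 50% of a region, leaving out libraries, and blocking on replicate number. The alternatives for the Il18 and Il33 percentiles were chosen after seeing the data. The steps tested on simulated data were merging, the calling of Allo-only and Syn-only regions, the mean of the percentile and gene assignment. Python 3.11.15, numpy 2.4.6, scipy 1.17.1, pandas 2.3.3 and matplotlib 3.10.9 were used.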

Additional observations from a re-analysis of the deposited data

Results flagged for a closer look

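In 4 of the 25 sets of Allo values examined, the value of 1 library lay far from those of the remaining 3. For values on a continuous scale about 1 in 20 sets would be picked out by chance. That rate does not apply to peak numbers, where 3 equal values always leave the fourth apart, as in 3 of the 4 cases below. Il18 had 4 peaks in Allo 1, against 5 in each of the other Allo libraries. Il33 had 5 peaks in Allo 4, against 4 in each of the others, and its region at 29939753 to 29940672 held 2 peaks in that library. Tslp had 4 peaks in Allo 3, against 2 in each of the others. The Il15 region at 82351127 to 82352280 stood at percentile 80.5 in Allo 4, against 87.1 to 88.4 in the other Allo libraries.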

How the results depend on the processing

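Of 152 alternative values, 141 stayed close to the reported value and 11 moved. Some of the 141 could not have moved, so this tally does not measure how stable the results are. Windows around summits left every difference in peak number and the percentile of the Il7 Allo-only region as reported. That percentile also stayed at 64.3 when a Syn library was left out and with a distance of 10 kb. The cause of each move was not tested beyond what its construction shows. No difference whose groups did not overlap changed sign, which leaving out libraries could not have caused. Of those that overlapped, Il33 turned to 0.0833 as given below. Il18, reported at 0.0833, was -0.333 with a −log10 q of at least 5 and with lists cut, -0.167 without Allo 3 and Allo 4, and -0.75 to 0.75 when a library was left out, lowest without Syn 1. The Allo-only regions numbered 2 instead of 1 with a −log10 q of at least 5, with lists cut to the shortest length, and without Allo 1 and Allo 2, and 1 to 2 when a library was left out, reaching 2 without Syn 2. The second region was the distal Il7 region, except without Allo 1 and Allo 2, where it was a weak Tslp region. The Syn-only regions numbered 1 instead of 0 without Allo 1 and Allo 2. The Il7 difference in peak number was 1 with a distance of 10 kb and 1.5 to 2 when a library was left out. Its groups stayed apart in all 14 alternatives, but most of these could not have brought them together. Fewer libraries or the block by replicate number cannot do so, and windows around summits left the group means unchanged. Only the distance of 10 kb, the minimum −log10 q of 5 and the cut lists could have, and the groups stayed apart there. The Il33 difference was 0.0833 with lists cut to the shortest length and -0.333 with a distance of 10 kb, and that of Il1rn was -0.0833 with lists cut. The percentile of the Il7 Allo-only region was 56.5 with lists cut, 78.8 when ranked by the fold, and 61.7 to 67.2 when a library was left out.

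The labels do not say that a replicate number marks a shared batch. Over the 50324 regions called everywhere, deviations from the group mean correlated at 0.0755, -0.0333 and 0.0742 for the replicate numbers 1, 2 and 3. Pairs of libraries with different numbers correlated at -0.0926 to 0.0376, so the values for numbers 1 and 3 lay above that range. Whether libraries of the same number share a batch was not tested. The block by replicate number, which leaves out Allo 4, gave differences in peak number of 1.67 for Il7, -0.67 for Il15, 0 for Il18, -1 for Il33, 0.67 for Tslp and -2 for Il1rn. The Il33 and Il1rn groups were then apart, as they were without Allo 4, and the share of all genes apart in that set was not counted. Unknown depth, lists of unequal length and 3 or 4 pools per group limit all values, and an uncalled peak does not show closed chromatin.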
